A study of Homo sapiens with 19 samples.

Results

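K562-only H3K27ac peaks were the regions acetylated at lysine 27 of histone H3 in K562 cells for which none of 3 acute myeloid leukaemia (AML) lines had a peak. They were chosen by the peak calls themselves. A K562 peak on chromosomes 1 to 22 or X was a member when no peak of HL-60, Molm13 or OCI-AML3 overlapped it by even 1 bp. Of 37424 K562 peaks, 20949 were K562-only, which is 56.0% (95% Wilson interval 55.5 to 56.5), and the other 16475 were shared with at least 1 AML line. This share is fixed by the selection and is a description. It was 29.4% when K562 peaks were kept only at q below 0.001 and 37.6% when that threshold was applied to all 4 lists.

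The lists came from chromatin immunoprecipitation followed by sequencing (ChIP-seq), with 1 library per line. K562 is a line from chronic myeloid leukaemia in blast crisis, and its cells carried a dCas9-KRAB repressor with an mCherry reporter and an sgRNA vector without a guide, with both reporters used to sort them. OCI-AML3, an AML line, carried the same constructs, whereas HL-60 and Molm13, both AML lines, were not transduced. Line, vector and library therefore cannot be told apart, and no test between lines was possible. Intervals given below cover counting error over peaks or genes, and peaks of 1 library are not replicates.

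H3K27ac is laid down at active promoters and enhancers. Promoters of housekeeping genes carry it in most cell types, whereas enhancers differ widely between lineages. K562 cells are known for an erythroid programme driven by GATA1, TAL1 and KLF1, and they express embryonic and fetal globins. GATA factors bind the letters AGATAA and variants of them. In erythroid cells GATA1 often sits next to TAL1, and the letters CTG then lie a short spacer before AGATAA. Megakaryocytes share GATA1 and NFE2 with red cell precursors, whereas AML lines rely on PU.1, C/EBP and RUNX factors.

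The lists held 20733 peaks for HL-60, 35069 for Molm13 and 37531 for OCI-AML3. Read numbers were not given, so the depth of each library was unknown, and the call of no peak in a line could not be set against its depth. The peak names inside the K562 and OCI-AML3 lists mention dCas9, although both libraries are labelled H3K27ac. K562 peaks had a median fold enrichment over local background of 2.85 and OCI-AML3 peaks one of 2.95. None of the 22 myeloid genes and none of the 12 lymphoid genes had H3K27ac at a transcription start site (TSS) in K562 alone. Only 4.79% of all coding genes were marked in K562 alone, so a count of 0 in lists of this size is no check of the label. Of the myeloid genes 12, among them MPO and CEBPA, were marked in AML lines only, beside 1740 of all 19970 coding genes. The 8 marked in K562 and in an AML line were AZU1, CD33, CD68, CSF3R, LST1, LYZ, PRTN3 and SPI1, and 2 were marked in no line.

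Some of the sequences under K562-only peaks are shown first, because they let the erythroid motif be read in place. Each line below is a stretch of hg38 from a K562-only peak whose nearest coding gene belongs to the gene lists used here. The capitals mark CTG followed after 7 to 9 bases by AGATAA, and the strand given is the one printed. No window overlaps an annotated exon. Among these sites only that of TUBB1 lies in the central 300 bp of its peak, where the motif shares below were counted. The others lie farther out, for example 2173 bp from the peak centre for RHAG and 3374 bp for the first GATA1 site.
RHAG, chr6:49646417-49646473, plus strand: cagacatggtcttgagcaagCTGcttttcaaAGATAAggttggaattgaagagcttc
GATA1, chrX:48782986-48783043, minus strand: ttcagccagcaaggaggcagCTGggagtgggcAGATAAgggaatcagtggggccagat
GATA1, chrX:48785955-48786010, minus strand: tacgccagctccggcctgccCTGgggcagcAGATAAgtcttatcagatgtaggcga
GYPB, chr4:144000618-144000673, minus strand: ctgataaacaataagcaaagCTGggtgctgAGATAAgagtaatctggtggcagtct
GYPE, chr4:143879844-143879899, minus strand: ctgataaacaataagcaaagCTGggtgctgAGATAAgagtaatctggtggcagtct
TFRC, chr3:196108444-196108500, plus strand: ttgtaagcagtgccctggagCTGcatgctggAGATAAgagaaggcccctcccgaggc
SOX6, chr11:16338013-16338069, plus strand: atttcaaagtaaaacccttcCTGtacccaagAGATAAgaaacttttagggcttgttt
GFI1B, chr9:133003074-133003129, minus strand: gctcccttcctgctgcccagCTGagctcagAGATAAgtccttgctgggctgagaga
EPB42, chr15:43221363-43221419, plus strand: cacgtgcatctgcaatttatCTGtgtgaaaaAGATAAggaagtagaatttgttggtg
KEL, chr7:142962400-142962456, minus strand: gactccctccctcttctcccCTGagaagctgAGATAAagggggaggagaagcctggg
TUBB1, chr20:59021159-59021215, plus strand: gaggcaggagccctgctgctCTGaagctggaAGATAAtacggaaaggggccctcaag
GP6, chr19:55038416-55038472, minus strand: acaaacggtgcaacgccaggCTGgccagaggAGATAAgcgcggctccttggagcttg

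The windows of GYPB and GYPE, neighbouring glycophorin genes that arose by duplication, were identical over all 56 bases although they lie in different peaks. Reads that fit both copies were not kept by the authors, so the signal at the glycophorin copies is uncertain. The motif pair itself was not rare. At least 1 copy lay somewhere in 1870 K562-only peaks (8.93%) and in 1778 shared peaks (10.8%). Shared peaks were also the wider ones, as given below. Per Mb of peak sequence the order was the other way, with 66.0 K562-only and 36.7 shared peaks that held a copy. This density counts a peak once however many copies it holds, and it pools peaks at and away from TSSs. The K562-only and shared sets differ in their share at TSSs and in GC content, as given below. The part of these differences in the density was not tested.

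Promoter sequences of RefSeq on GRCh38.p14 were available here for GATA1 and KLF1 among the 3 marker genes. The 250 bases before each start are given, with GATAA and CACCC, the core of the sites of KLF-type factors, in capitals on either strand.
GATA1, chrX:48786340-48786589, plus strand: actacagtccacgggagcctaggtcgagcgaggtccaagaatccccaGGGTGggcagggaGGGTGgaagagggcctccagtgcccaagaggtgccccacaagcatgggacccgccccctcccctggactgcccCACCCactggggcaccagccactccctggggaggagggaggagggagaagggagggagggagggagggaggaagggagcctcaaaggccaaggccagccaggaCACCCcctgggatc
KLF1, chr19:12887202-12887451, minus strand: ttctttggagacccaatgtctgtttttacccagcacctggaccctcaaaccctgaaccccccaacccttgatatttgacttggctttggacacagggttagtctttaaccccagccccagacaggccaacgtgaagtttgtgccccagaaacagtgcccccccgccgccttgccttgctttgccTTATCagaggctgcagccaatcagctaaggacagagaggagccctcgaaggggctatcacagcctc
The GATA1 promoter held 4 copies of CACCC and 0 of GATAA, and the KLF1 promoter held 1 copy of GATAA and 0 of CACCC. Over 27195 RefSeq promoters of this length, 53.8% held CACCC and 21.0% held GATAA.

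The 3 marker genes all had H3K27ac at a TSS in K562 and in none of the AML lines. GATA1, the master regulator of erythroid and megakaryocytic genes, lay under a peak of 8806 bp (chrX:48781986-48790791) with a fold enrichment of 4.74. The AML lines had no peak within 500 bp of its TSSs. HBG1 and HBG2, the γ-globin genes of fetal haemoglobin, lay together under a K562-only peak of 21706 bp (chr11:5237953-5259658) with a fold enrichment of 4.40. KLF1, an activator of adult β-globin and of membrane genes, lay under a peak of 11579 bp (chr19:12879959-12891537) with a fold enrichment of 3.99. That peak was overlapped elsewhere along its length by an AML peak and so was not itself K562-only, although no AML peak lay within 500 bp of a KLF1 TSS. TAL1, the partner of GATA1 in erythroid complexes, had the same pattern as GATA1, with a peak of 7127 bp at a fold enrichment of 4.87.

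At the GATA1 locus 5 K562-only peaks lay within 60 kb of the gene's 5′ end and formed one run from 5′ of the gene into its body. The flanking K562 peaks on both sides were shared, and the AML lines had peaks only there, with 1 peak of HL-60 and 2 each of the other AML lines. At the β-globin locus 9 K562-only peaks lay within 60 kb of HBG1. Besides the γ-globin peak, a K562-only peak of 25904 bp (chr11:5267441-5293344, fold enrichment 3.81) covered HBE1, the embryonic ε-globin gene, and extended away from the γ-globin genes, on the side where the locus control region lies. The AML lines contributed 1 peak to this window, a Molm13 peak of 394 bp near HBD with a fold enrichment of 3.37. Around RHAG, which encodes the Rh-associated glycoprotein, all 9 K562 peaks were K562-only and no AML line had a peak within 60 kb.

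**Figure D1:**
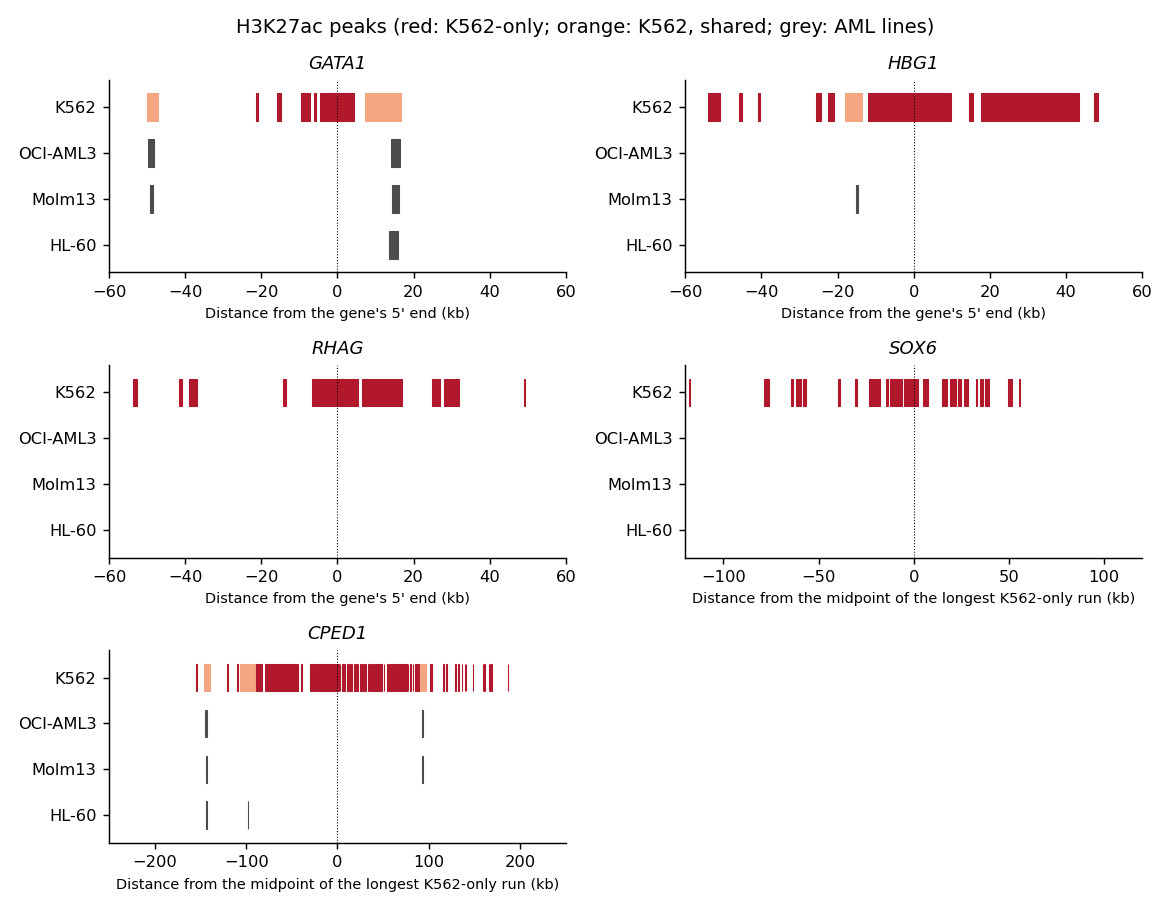
H3K27ac peaks of the 4 lines around 5 genes, drawn to scale in kb, with positive values towards higher chromosome coordinates. The dotted line is the gene's 5′ end for GATA1, HBG1 and RHAG and the midpoint of the longest run of K562-only peaks for SOX6 and CPED1. Red bars are K562-only peaks, orange bars are K562 peaks shared with an AML line, and grey bars are peaks of the AML lines. The AML rows are empty in the windows of RHAG and of the SOX6 run, and the SOX6 window leaves out the gene's 5′ end, which was marked in all 4 lines.

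Membership was tied to how strong and how wide a peak was. The median fold enrichment was 2.68 (2.67 to 2.68) for K562-only peaks and 3.32 (3.30 to 3.33) for shared peaks, and the median width was 904 bp (893 to 915) against 2141 bp (2103 to 2172). With q below 0.001 in the K562 list the K562-only median width was 1968 bp, and with that threshold in all lists it was 2057 bp. A wider peak is more likely to be touched by another peak, so these values are not independent of the selection. When K562 peaks were split into 10 equal groups by fold enrichment, 77.3% of the lowest group and 15.1% of the highest group were K562-only. By width the corresponding shares were 81.5% of the narrowest and 19.6% of the widest group. K562-only peaks thus made up 56.0% of the peaks but 28.3 Mb of the 76.8 Mb covered, or 36.9%.

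Many members lay far from any AML peak. The median distance from a K562-only peak to the nearest AML peak was 10775 bp. For 10903 members (52.0%) it was over 10000 bp and for 1278 (6.10%) over 100000 bp. At the edge of the rule, 161 K562-only peaks had an AML peak within 100 bp, and these were 665 bp wide in the median with a fold enrichment of 2.60. Just inside the shared set, 172 peaks were overlapped over 100 bp or less, and their medians were 2.59 and 791.5 bp. Of the shared peaks, 8791 were matched in all 3 AML lines, 4175 in 2 and 3509 in 1. Among the last, 2105 were matched by OCI-AML3 alone, 999 by Molm13 alone and 405 by HL-60 alone.

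K562-only peaks lay mostly away from TSSs. Only 3445 of them (16.4%, 15.9 to 17.0) were within 500 bp of an annotated TSS, against 63.7% (62.9 to 64.4) of shared peaks. The difference was −47.2 percentage points (95% Newcombe interval −48.1 to −46.3). A further 29.4% of K562-only peaks were between 500 and 5000 bp from a TSS and 54.2% were farther, compared with 13.9% and 22.4% of shared peaks. Read the other way, 24.7% of the K562 peaks at a TSS were K562-only, 72.9% of those between 500 and 5000 bp and 75.4% of those beyond, which here are called distal. The contrast was present in each of 3 groups by enrichment. In the lowest of 3 equal groups by fold enrichment 13.1% of K562-only and 27.2% of shared peaks were at a TSS, in the middle group 15.9% and 48.3%, and in the highest 27.9% and 82.1%.

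**Figure D2:**
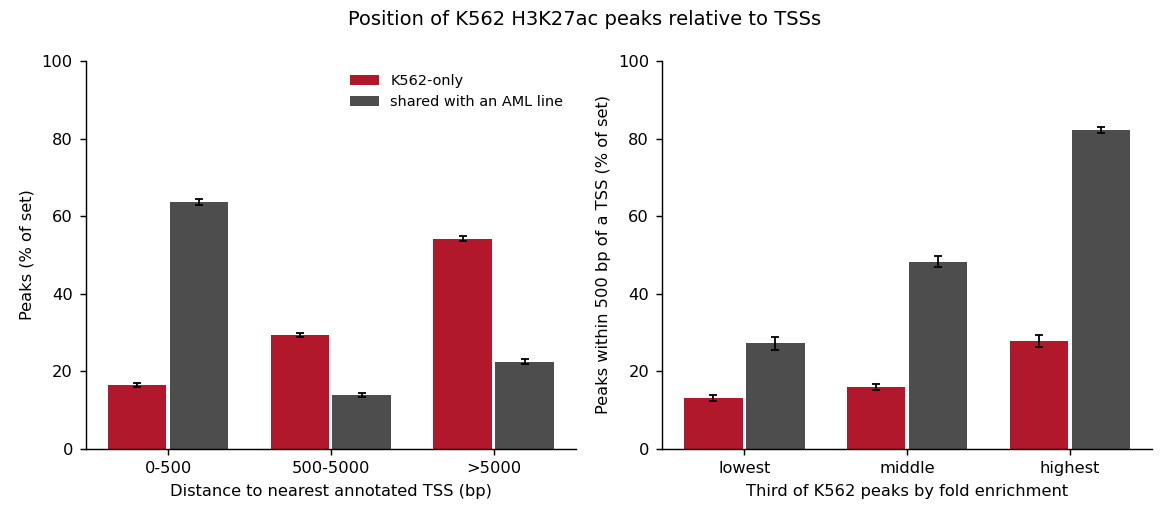
Left, percentage of K562-only (red) and shared (grey) K562 peaks by distance in bp to the nearest annotated TSS. Right, percentage of peaks within 500 bp of a TSS in 3 equal groups of K562 peaks by fold enrichment. Whiskers are 95% Wilson intervals, and in each group the K562-only share at TSSs is the lower, reaching 27.9% against 82.1% in the highest.

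The members also lay farther from coding genes. Over 50000 bp from any coding TSS were 17.7% of K562-only and 7.19% of shared peaks. Distal K562-only peaks were within introns in 61.5% of cases, intergenic in 26.9% and over an exon in 11.5%. Among distal shared peaks 57.2% were intronic, 31.3% intergenic and 11.5% exonic. The K562-only peaks that did lie at a TSS were poorer in CpG dinucleotides. Their median ratio of observed to expected CpG was 0.272 (0.266 to 0.282), against 0.594 (0.589 to 0.598) at shared TSS peaks, and their median GC content was 45.0% against 52.2%. By chromosome, the K562-only share of K562 peaks went from 37.6% on chromosome 19 to 66.9% on chromosome 4. It was 59.9% on chromosome 8, where HL-60 had only 357 peaks beside 2359 of OCI-AML3 and 1657 of Molm13, and the part of that gap in the share was not tested.

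At the level of genes, 957 coding genes had a K562 peak and no AML peak within 500 bp of any TSS. Any annotated start of a gene counted, including starts inside it. The number of genes is compared here with all coding genes. The 957 genes were 4.79% of the 19970 coding genes and 8.55% of the 11199 marked in K562. The count was 585 when K562 peaks were kept only at q below 0.001. Conversely 1740 coding genes were marked in an AML line but not in K562, of which 444 were marked in all 3 AML lines. The 5 erythroid lists, of 78 genes, held 29 genes marked in K562 alone, or 43.9% of their 66 genes marked in K562, beside the 8.55% over all coding genes. Because these genes were listed with earlier results of the same data known, the counts describe the lists and are not independent evidence. Of the 24 megakaryocyte and platelet genes, 9 were marked in K562, 6 of them in K562 alone.

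Erythroid transcription factors were mostly marked in the AML lines too. Of 12 such genes, GATA1, TAL1 and KLF1 were marked in K562 alone, 8 in K562 and an AML line, and BCL11A, a silencer of γ-globin, in AML lines alone. The 3 were 27.3% of the list's 11 genes marked in K562, beside 8.55% over all coding genes. Among the 8 was GFI1B, a repressor of erythroid and platelet genes, with a fold enrichment of 4.69 in K562 and of 5.27 in OCI-AML3, while Molm13 had 8.96 and HL-60 7.79. Enrichments are scaled within each library and were not compared between lines. NFE2, which activates globin and platelet genes, had a K562 peak of 33929 bp at 5.31 and peaks in Molm13 at 5.25 and OCI-AML3 at 3.39, but none in HL-60. SOX6, which represses embryonic globin, was marked in all 4 lines at its TSSs, whereas 31 K562-only peaks and 1 shared peak were nearest to it.

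Of the 11 globin-list genes 7 were marked in K562 alone, 87.5% of those marked in K562, beside 8.55% over all coding genes. In order of the K562 fold enrichment they included HBG1 and HBG2 at 4.40, HBM at 4.20, HBE1 at 3.83, HBZ, the embryonic ζ-globin, at 3.74 and HBQ1 at 2.92. The value of HBE1 is that of a peak of 6821 bp at an annotated start far upstream (chr11:5499308-5506128). The peak over the gene itself is the one of 25904 bp described above. The HBM peak (chr16:154330-155098) lay 438 bp from an annotated HBM start that falls within HBZ. HBB, the adult β-globin gene, had a K562-only peak of 1567 bp at 2.31. This was a weak call, with a −log10 q of 1.296, so that its q lay just above the stated 0.05. HBD, the minor adult δ-globin gene, was the one globin marked in an AML line, by the Molm13 peak. HBA1, HBA2 and AHSP, the chaperone of α-globin, had no peak within 500 bp of a TSS in any line. A K562-only peak of 1221 bp at 2.72 (chr16:177270-178490) overlapped HBA1 but lay 522 bp from the nearest coding TSS. HBA1 and HBA2 are near-identical copies, as are HBG1 and HBG2, and reads that fit more than 1 place were discarded, so these calls are uncertain.

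Genes of the red cell membrane and of blood groups gave the largest number, with 14 of 26 marked in K562 alone, 9 in K562 and an AML line, and 3 in no line. Those 14 were 60.9% of the list's 23 genes marked in K562, beside 8.55% over all coding genes. RHAG led them at a fold enrichment of 5.57, with a TSS peak of 12180 bp (chr6:49630052-49642231). Others were GYPE at 4.34, TMOD1, which caps actin filaments of the membrane skeleton, at 4.20 and ANK1, the ankyrin that anchors spectrin, at 4.10. The ANK1 peak (chr8:41786130-41800436) lay at an annotated start inside the gene and was itself overlapped by an AML peak away from the TSSs of ANK1. SLC4A1, the band 3 anion exchanger, and BCAM and TMCC2 were not marked in K562 or in any AML line. GYPE and RHAG thus carried the mark in K562, and band 3 did not.

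Of the 20 heme and iron genes 3 were marked in K562 alone and 15 in K562 and an AML line. Those 3 were 16.7% of the list's 18 genes marked in K562, beside the 8.55% over all coding genes. The 3 were SLC40A1, the iron exporter ferroportin, at 4.64, ABCB6, a porphyrin transporter, at 3.88 and ALAS2, the erythroid enzyme that opens heme synthesis, at 3.05. The general heme enzymes ALAD, UROS, UROD, CPOX, PPOX and FECH were all among the 15. HMOX1, which degrades heme, was marked in no line and ABCB10 in AML lines only. Of 9 signalling and enzyme genes, PKLR, the red cell pyruvate kinase, at 2.77 and CA1, a red cell carbonic anhydrase, at 2.68 were marked in K562 alone. CA2, GPX1 and RHEX were marked only in AML lines.

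The megakaryocyte list was marked in part. PEAR1, a platelet aggregation receptor, was marked in K562 alone at a fold enrichment of 3.98, TUBB1, the platelet β-tubulin, at 3.74, GP6, the collagen receptor, at 3.59 and GP1BB, a subunit of the von Willebrand factor receptor, at 2.86. NRGN followed at 2.59 and ITGB3, the β3 integrin chain, at 2.34. The peaks of PEAR1 (chr1:156913129-156915130) and ITGB3 (chr17:47291301-47292202) lay at annotated starts inside these genes, away from their 5′ ends. The ITGB3 peak was weak, with a −log10 q of 1.35. ITGA2B, RUNX1 and MEIS1 were marked in K562 and in AML lines, and FLI1 in AML lines only. The other 14, among them GP1BA, GP5, GP9, PF4, PPBP, VWF, SELP, THBS1, MYL9, TREML1, CLEC1B, F13A1 and GNAZ, had no peak at a TSS in any line. PF4, a defining platelet gene, was thus unmarked.

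GNGT1, a transducin subunit of photoreceptors, had the strongest TSS peak among genes outside the lists that were marked in K562 alone. Its fold enrichment was 5.90. CPED1 at 5.68, VWDE at 5.54, CHMP4C at 5.53, AKR1C2 at 5.50, EGFL7, an endothelial gene, at 5.44 and GALNT5 at 5.42 followed. INHA and OBSL1 shared a peak at 5.39, and OSBP2 at 5.33, NMU, the neuropeptide neuromedin U, at 5.29 and SCAND3 at 5.24 completed the first 12. The CPED1 peak at the TSS was overlapped by an AML peak elsewhere. The peaks of AKR1C2, EGFL7, INHA and OSBP2 lay at annotated starts inside these genes and reached neither end of them. Among the listed genes marked in K562 alone, RHAG at 5.57 was the sole gene within this range.

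The 12 strongest K562-only peaks had fold enrichments between 5.57 and 6.91. They included peaks assigned to NCAM2 at 6.81, LYZL2 at 6.45, ABRAXAS1 at 6.44 and MAPRE2 at 5.95, and then to GNGT1, POGK, FBXO5, BLOC1S4 and ADGRB3. For NCAM2, POGK and ADGRB3 the nearest coding TSS was over 100000 bp away, so the gene named is only a landmark. A pair of these peaks belonged to RHAG, at 5.57 each, one over its TSS and one 6546 bp from it, and both lay more than 100000 bp from any AML peak. RHAG was the sole gene of the erythroid and megakaryocyte lists among these 12.

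Each K562-only peak was assigned to the coding gene with the nearest TSS. The 20949 peaks fell to 7499 genes, 37.6% of all coding genes, with a median of 2 peaks each. Of the 78 erythroid genes 52 (66.7%) were nearest to at least 1 K562-only peak. Of the 24 megakaryocyte genes 12 were, of the 22 myeloid genes 4 (18.2%) and of the 12 lymphoid genes 1 (8.33%). A peak that covers several TSSs was given to a single gene, and HBG1 collected none in this way. Of the K562 peaks nearest to erythroid genes, 208 were K562-only and 77 shared, so that 73.0% were K562-only beside 56.0% of all K562 peaks. The lists did not share this evenly. The globin list stood at 92.3%, the membrane list at 80.3% and the transcription factor list at 60 K562-only to 20 shared peaks, of which SOX6 gave 31 and 1. Heme and iron genes stood at 53.7%, signalling and enzyme genes at 45.5% and the megakaryocyte list at 52.2%, each below the value of all K562 peaks.

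The genes that collected most K562-only peaks were MYC with 38, ZFPM2 and LRBA with 37 each, CDC42BPA with 36, CPED1 and NFIA with 35 each and ADGRB3 with 33. INTU, SOX6 and UBR3 had 31 each, and MED13L and STXBP5 had 28 each. A count of 10 or more was reached by 284 genes. MYC, a growth regulator with distant enhancers in blood cells, was marked at its TSS in K562 and AML lines. Its 38 K562-only peaks covered 97346 bp in sum, lay at a median of 265224 bp from its nearest TSS and reached 814364 bp, alongside 7 shared peaks. MYC and ZFPM2 are on chromosome 8, where the HL-60 list is short. INTU and ADGRB3 collected peaks at median distances of 840151 and 170644 bp, so the gene named is only a landmark. SOX6, by contrast, had its peaks at a median of 7314 bp and STXBP5 at 7180 bp. Most of these genes were marked at the TSS in AML lines too, and CPED1 and ADGRB3 were the exceptions.

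Many K562-only peaks came in runs. A domain was defined as 3 or more consecutive K562-only peaks with gaps of at most 10000 bp and no shared K562 peak in between. There were 1443 domains with a median span of 15145 bp, and they held 5624 peaks, or 26.8% of the members. Under other settings there were 74 domains with q below 0.001 in the K562 list, 116 with it in all lists and 895 with gaps of at most 5000 bp. Of the 1443 domains, 302 held 5 or more peaks and 18 held 10 or more. An AML peak lay in a gap of 241 domains, and 821 domains had no peak at a TSS. Peaks in domains were 1018 bp wide in the median at a fold enrichment of 2.67, and those outside were 872 bp wide at 2.68. Their share of central 300 bp windows with AGATAA was 25.9% inside and 25.4% outside domains.

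By far the longest run lay in CPED1 on chromosome 7. Its 26 K562-only peaks spanned 177990 bp (chr7:121005535-121183524) with no AML peak in the gaps, and together they covered 127652 bp. The widest member of all, 36938 bp, belonged to this run. MAN1A1, a Golgi mannosidase gene, followed with 16 peaks over 70636 bp and SOX6 with 15 peaks over 79174 bp (chr11:16317837-16397010), again with no AML peak in the gaps. NFIA, a factor known to favour the erythroid over the granulocytic fate, had 13 peaks over 99951 bp (chr1:61104141-61204091). BMP2K and PUM2 also had 13 peaks, SGMS1, FAM184A and TPR were among those with 12, and ARHGAP6 and VWDE had 11. The ARHGAP6 run was the strongest of the 12, with a median fold enrichment of 3.27 over 91025 bp of chromosome X. The weakest by that measure was SGMS1 with 2.44.

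Erythroid-list genes were the nearest gene of at least 1 peak in a domain in 21 cases of 78. They included ADD2, ALAS2, ANK1, EPB41, GATA1, GYPB, GYPE, HBE1, HBG2, HBM, HBZ, KLF3, RHAG, SEMA7A, SLC25A37, SLC40A1, SOX6, SPTB, TAL1 and ZFPM1. The megakaryocyte list contributed TUBB1, and the myeloid and lymphoid lists contributed 0 genes, while 1344 of all 19970 coding genes did so. ANK1 had 7 peaks over 33123 bp, none of them with AGATAA in the central 300 bp. RHAG and GATA1 each had 5 peaks. An AML peak lay in a gap of the ANK1, ALAS2 and HBZ runs. The RHAG run, with a median fold enrichment of 3.75 and 29441 bp covered, was the strongest erythroid one. At the ζ-globin end of the α-globin cluster, HBZ and HBM shared a run of 4 peaks (chr16:141966-155098), while HBA1 and HBA2 had none within 500 bp of a TSS. The run around HBE1 and HBG2 had 4 peaks that covered 49961 of 60394 bp.

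The sequence of the peaks was not used to choose them. In the central 300 bp of distal peaks, AGATAA was present in 3102 of 11352 K562-only peaks (27.3%, 26.5 to 28.2) and in 805 of 3695 shared peaks (21.8%, 20.5 to 23.1). The difference was 5.54 percentage points (3.96 to 7.08). In distal peaks of the AML lines without a K562 peak OCI-AML3 gave a share of 19.9% and Molm13 one of 18.6%, and HL-60 had 1316 of 6583 windows with AGATAA. The paired motif of CTG and AGATAA, whose copies are included in the counts of AGATAA, was found in 2.59% of K562-only and 1.68% of shared distal peaks, a difference of 0.91 points (0.37 to 1.39). At TSS peaks AGATAA was present in 20.4% of K562-only and 10.3% of shared peaks, a difference of 10.1 points (8.65 to 11.6), with the difference in GC content at TSS peaks given above.

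Motifs of RUNX and PU.1, factors of myeloid cells, were less frequent in distal K562-only peaks. The RUNX motif TGTGGTT was present in 681 of 11352 K562-only peaks and in 308 of 3695 shared ones, or 8.34%, a difference of −2.34 points (−3.36 to −1.38). The PU.1 motif GAGGAAGT was present in 2.47% and 4.41%, a difference of −1.94 points (−2.71 to −1.26). At TSS peaks RUNX was instead more frequent in K562-only peaks, at 5.08% against 3.34%, a difference of 1.74 points (0.97 to 2.59), and PU.1 stood at 2.03% in both sets. AP-1, searched as TGACTCA, gave 9.02% and 10.1% in distal peaks, with a difference whose interval reached 0. At TSS peaks it was more frequent in K562-only peaks, at 7.55% against 3.99%, a difference of 3.55 points (2.63 to 4.55). K562-only and shared TSS peaks differ in GC content, as given above, and TSS peaks were not split by GC content for any motif. The C/EBP motif TTGCGCAA was too rare to compare, with 2 K562-only and 1 shared peak. All motifs were searched on both strands.

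Base composition moved with this result. Distal K562-only peaks had a median GC content of 40.4% (40.2 to 40.6) and shared ones 42.8% (42.5 to 43.0). AATAGA, the same letters in another order, was also more frequent in K562-only windows, at 19.5% against 16.8%, a difference of 2.70 points (1.27 to 4.08). Within 4 equal groups of distal windows by GC content, the AGATAA difference was 1.86 points (−2.20 to 5.73) in the group of lowest GC and 1.65 (−1.83 to 5.00) in the second, neither distinguishable from 0. In the next group and in that of highest GC it was 4.54 (1.36 to 7.58) and 5.87 (3.55 to 8.05), whereas AATAGA differed by 1.77 (−0.95 to 4.30) and 0.14 (−1.67 to 1.80). The RUNX difference was negative in all 4 groups, from −1.99 to −3.58 points, with intervals below 0 in each. The PU.1 difference was negative in all 4 as well, with an interval that included 0 in the group of lowest GC. For the paired motif of CTG and AGATAA the difference was 0.57 points (−0.76 to 1.43) in the group of lowest GC. It was 0.87 (−0.39 to 1.85) in the second and 0.92 (−0.34 to 1.94) in the next, none distinguishable from 0. In the group of highest GC it was 1.35 (0.37 to 2.20).

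The peaks nearest to erythroid genes could not be distinguished from other members by the motif at their number. Of the 208 such K562-only peaks, 52 held AGATAA in the central 300 bp (95% interval of the share 19.6 to 31.3%), beside 25.5% of all K562-only peaks. The paired motif was present in 8 of the 208 (3.85%, 95% interval 1.96 to 7.40) and in 2.43% (2.23 to 2.65) of all members. The interval of the erythroid set spans the value of all members in both cases.

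A further readout in K562 was the binding of dCas9 in cells that carried sgRNAs against LTR2B, which are endogenous retroviral LTRs (long terminal repeats). The paper reports dCas9 peaks at the related LTR2 family and at other sites too, so the counts below are not counts of LTR2B copies. Of its 392 peaks, 14 lay over K562-only H3K27ac peaks, 62 over shared ones and 316 over neither. Counted by H3K27ac peaks, 14 K562-only peaks (0.0668%, 0.0398 to 0.112) and 61 shared peaks (0.370%, 0.288 to 0.475) were overlapped. The difference was −0.303 percentage points (−0.412 to −0.210), and the shared peaks are also the wider ones and more often at a TSS. Among distal peaks 6 of 11352 K562-only and 8 of 3695 shared ones were overlapped, a difference of −0.164 points (−0.376 to −0.040). The K562-only share was 0.233% with q below 0.001 in the K562 list, 0.265% with it in all lists and 0.136% when 50% of a K562 peak had to be covered.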

How the data were processed

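H3K27ac peak lists of 4 lines and a dCas9 peak list of K562, 5 of the 19 samples of the series, were used; the other 14 samples were not analysed here. Samples were grouped by their titles. Per the labels, 15 µg of chromatin, sheared to 200 to 700 bp, and 2.5 µg of antibody were used per histone ChIP, and 75 µg and 5 µg for dCas9. The authors trimmed reads with Trim Galore 0.4.5, aligned them to hg38 with Bowtie2, kept uniquely mapped reads and called peaks with MACS2 2.1.1 at q 0.05, as broad peaks in the case of histone marks. The Bowtie2 version is 2.3.4 per the labels and differs in the study's methods. The control library of the caller is not given in the sources used here. The deposited lists give positions, a score, the fold enrichment (a ratio) and −log10 p- and q-values, averaged by the caller over a broad peak. The deposited q-values reach 0.0978 in the K562 list, and 5.62% of its peaks exceed 0.05. Inside the K562 and OCI-AML3 lists peak names mention dCas9, although the labels give H3K27ac.

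Peaks on chromosomes 1 to 22 and X were compared with GENCODE 44 and hg38 (Python 3.11.15, pysam 0.24.0, samtools 1.23.1), which left out 60 K562 peaks. A gene was marked when a peak lay within 500 bp of any of its TSSs. Coordinates are 1-based. Shares have Wilson intervals, differences Newcombe intervals and medians order-statistic intervals at 95%. Overlaps, nearest TSSs, domains and motif counts were tested on simulated data. No p-value was computed, since each line had 1 library. Genes named are the 3 markers, up to 6 K562-only genes of each list by fold enrichment, the first 12 by nearest peaks, domains, peak strength and TSS strength, and unmarked list genes; genes named beyond this, such as GFI1B, NFE2, SOX6, HBB, HBD, MPO and CEBPA, and the printed windows, were chosen after their values were seen. A few genes that this rule names are not reported here. The members and lists were chosen with earlier results of these data known. Alternatives varied the q threshold, the overlap, the AML lists used, the merging of peaks, the TSS window, the domain gap and the motif search; 2 on base composition were added after seeing the data.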

Additional observations from a re-analysis of the deposited data

How the results depend on the processing

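The number of reads behind each list was unknown, so weak K562-only peaks cannot be told apart from regions missed in an AML line. The K562-only share depended most on the q threshold: it was 29.4% with q below 0.001 in the K562 list only, 37.6% with that threshold in all 4 lists and 55.3% with q below 0.05 in all 4. It was 66.9% when 50% of a K562 peak had to be covered, 52.5% with AML peaks extended by 1000 bp, and 57.1%, 58.6% and 61.6% without the HL-60, Molm13 or OCI-AML3 list.

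In the same order of thresholds (q below 0.001 in K562, in all lists, q below 0.05 in all), the median width of K562-only peaks was 1968, 2057 and 964 bp and the median fold enrichment 3.34, 3.34 and 2.71. With 50% coverage they were 1036 bp and 2.72, without Molm13 the width was 916 bp, and without OCI-AML3 they were 926 bp and 2.68. The difference in TSS share stayed negative in every setting run, at −51.8, −53.5 and −48.4 points under the thresholds, −44.4 with 50% coverage, −43.6 with extended peaks, −49.5 without Molm13, −49.8 without OCI-AML3, −45.5 with a 1000 bp window and −45.8 with coding TSSs only.

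Coding genes marked in K562 alone numbered 585 with q below 0.001 in K562 only and 854 to 1378 otherwise; the erythroid lists held 23 to 31 of them and the megakaryocyte list 4 to 6. The coverage setting has no gene count. Domains numbered 74 and 116 with q below 0.001 in K562 and in all lists and 895 with gaps of at most 5000 bp. The ratio of distal AGATAA shares, K562-only over shared, was 1.25. It was 1.43 and 1.49 under the stricter thresholds, 1.98 at TSS peaks, 1.16 for AATAGA, and 1.06, 1.06 and 1.56 in the lowest, the next and the highest of 4 groups by GC content. The share of K562-only peaks overlapped by dCas9 was 0.233%, 0.265% and 0.136% with q below 0.001 in K562, in all lists and with 50% coverage. Beyond the settings' own construction the causes were not tested. The other 60 of 102 values stayed within the interval, or for counts within 1.5 times, of those reported. No paired analysis was possible because each line had 1 library and no fit was made.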
